A study of Apis cerana with 76 samples.

Results

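The drone of the eastern honey bee, Apis cerana, has a testis, which makes the sperm, and a mucus gland, an accessory gland of the male tract whose secretion follows the sperm at mating. MicroRNA counts of these organs were set against each other. The members were all entries of the organ count table with 10 or more counts in the mucus gland column, the testis column or both, which gave 125 of 171 entries. Of these, 103 reached 10 counts in both organs, 12 in the mucus gland alone and 10 in the testis alone, while 46 entries stayed under 10 in both and 20 of those were at 0 in both. At the limit, miR-3782 entered with 4 counts in mucus gland and 10 in testis and miR-980-3p with 10 and 0, and miR-3783-3p and miR-3725 stayed out at 5 and 7 and at 1 and 7 counts.

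The study profiled small RNAs of wild-type bees over developmental stages and 11 organ groups of workers, drones and queens. Both organs used here came from wild-type drones with no treatment named, and each is represented by 2 libraries that the authors merged into 1 column. The labels give no age or mating state, and they do not say whether the libraries came from separate animals or how many animals were dissected. The comparison addresses how the miRNA content differs between the gland and the gonad of the drone.

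A miRNA is a short RNA, cut from a hairpin precursor, that guides Argonaute proteins to messenger RNAs. Most of its target choice lies in the seed, here bases 2 to 8, so miRNAs of 1 seed can act on overlapping sets of messages. The mucus gland is a secretory epithelium wrapped in a muscle coat, and the testis is made of bundles of tubules in which germ cells develop. Muscle, epithelial and germline miRNAs are therefore those of first interest. With no age in the labels, the germ cell content of these testis libraries is not known.

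The 2 columns held 8476499 miRNA counts (mucus gland) and 4933788 (testis), the largest and the third largest of 11 organ columns that spanned 184457 to 8476499. With 1 column per organ there is no replicate error and no test between the 2 columns alone. The exact binomial intervals (95%) given below cover counting error only, and 3 counts, the limit that a count of 0 allows, correspond to 0.321 CPM, a count divided by the scaled total of its column, in mucus gland and 0.404 in testis. Levels are CPM scaled by TMM (trimmed mean of M values, computed over the 11 organ columns), and a log2 ratio is mucus gland over testis of CPM plus 1. Ranks among the 11 organ columns are by these levels and were not repeated under another scaling, so close ranks may depend on it. In whole organs, fewer cells of a type and less RNA per cell cannot be told apart.

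The sequences on which the contrast turns are shown 5′ to 3′ as the deposited table gives them, with the seed in capitals. The first set holds the muscle miRNA miR-1-3p and its usual muscle partner miR-133-3p, which lay on opposite sides, and miR-277-3p, miR-316-5p and miR-10a-5p, which were highest in mucus gland and lowest in testis of all organ columns.
miR-1-3p: uGGAAUGUaaagaaguauggag
miR-133-3p: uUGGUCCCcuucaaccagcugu
miR-277-3p: uAAAUGCAcuaucugguacgac
miR-316-5p: uGUCUUUUuccgcuuugcug
miR-10a-5p: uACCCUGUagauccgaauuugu

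The second set holds families in which the leading entry of 1 seed differed between the organs: miR-9, then the miR-2, miR-11, miR-13 and miR-2944 group, then miR-279 and miR-996.
miR-9a-5p: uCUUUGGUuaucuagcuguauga
miR-9b-5p: gCUUUGGUaaucuagcuuuauga
miR-9c-5p: uCUUUGGUgagcuaacuguaugg
miR-11-3p: cAUCACAGgcagaguucuaguu
miR-13b-3p: uAUCACAGccauuuuugacgauu
miR-2a-5p: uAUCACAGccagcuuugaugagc
miR-2944-3p: uAUCACAGcaguaguuaccug
miR-279a-3p: uGACUAGAuccacacucauu
miR-279b-3p: uGACUAGAucgaaauacucguc
miR-279d-3p: uGACUAGAuccacacucaucc
miR-996-3p: uGACUAGAuacauacucgucu

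The third set holds 6 entries that were abundant in testis and scarce or absent in mucus gland, and a pair, miR-275-3p and miR-306-5p, that share a seed but not a pattern.
miR-190-5p: aGAUAUGUuugauauucuugguug
miR-2765-5p: uGGUAACUccaccaccguuggc
miR-1175-3p: uGAGAUUCacuccuccaacuuac
miR-3715-5p: uCGGUAAGcagaguauaagaccu
miR-3791-3p: uCACCGGGuaggauucaucc
miR-3718a-3p: uCCCCUGUccugucccgauag
miR-275-3p: uCAGGUACcugaaguagcgcgc
miR-306-5p: uCAGGUACugagugacucugagu

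The last set holds pairs of entries that are complementary over 20 or more bases, from the Hox locus iab and from miR-6000.
miR-iab-8-3p: aGGAUACAuucaguauacguac
miR-iab-4-5p: aCGUAUACugaauguauccuga
miR-6000-5p: cGUGGGUAcuacucgucucuaua
miR-6000-3p: uAGAGACGaguaguacccacgagu

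The mucus gland profile was dominated by miR-1-3p, while the testis profile was spread over many miRNAs. miR-1-3p, the conserved miRNA of muscle, took 47.1% of all mucus gland counts and 0.824% of testis counts. In testis the leading entry was miR-184-3p, which acts in the female germline of flies, at 14.8%, followed by miR-190-5p at 10.2% and let-7-5p at 8.44%. The 10 leading entries made up 86.0% of mucus gland counts and 65.9% of testis counts. The effective number of entries (the inverse of the summed squared shares) was 4.03 in mucus gland and 16.6 in testis, the latter being the highest of the 11 organ columns. The number of entries with 10 or more counts was similar, 115 in mucus gland and 113 in testis, and 106 would be expected in mucus gland at the testis total.

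**Figure D1:**
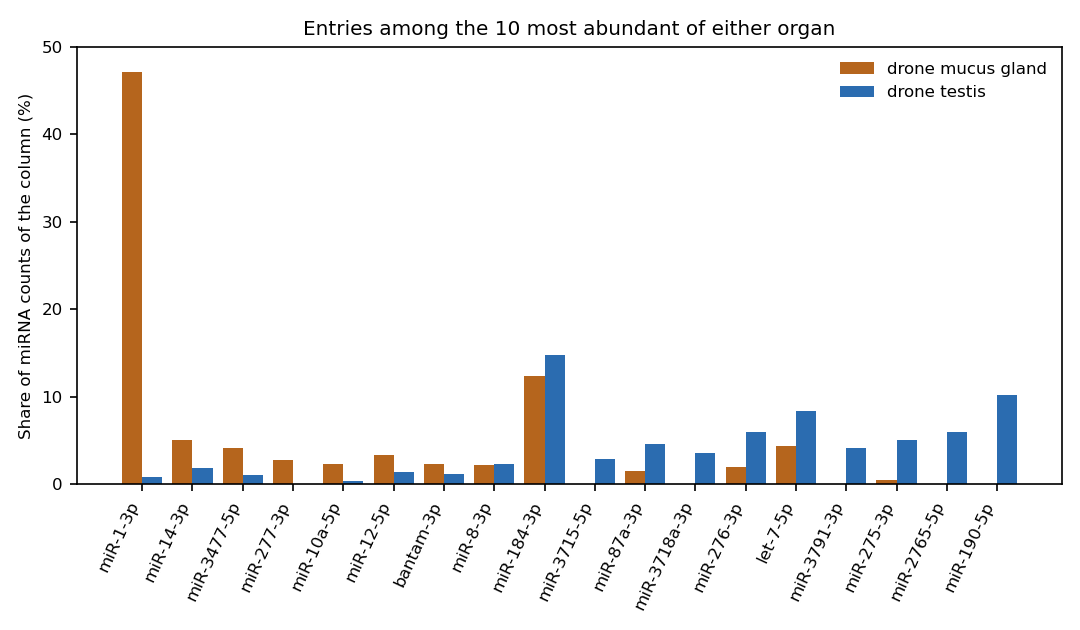
Share of all miRNA counts of the column, in percent, for every entry among the 10 most abundant of the drone mucus gland (brown) or the drone testis (blue), 1 merged column each and so no error bar. miR-1-3p stands at 47.1% in mucus gland and 0.824% in testis, miR-184-3p is high in both, and miR-190-5p, miR-2765-5p and miR-3791-3p are seen in testis alone on this scale.

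Of the 125 members, 71 (56.8%) were at least 2-fold apart with 50 CPM or more on the higher side. In mucus gland 26 of them were higher (20.8%) and 45 were lower (36.0%), and a 4-fold difference was reached by 17 and 38 of these. The median log2 ratio over the 125 was -0.64. The split depended on the scaling. The 26 higher and 45 lower with TMM became 20 and 51 with plain CPM and 29 and 40 with DESeq2 size factors. These scalings moved the median by -0.37 and 0.47, and the largest shift, 0.55, came from column totals without the 2 top entries (30 higher, 40 lower). Of the members, 20 were higher and 40 lower under all 5 scalings, and 0 that passed the 2-fold rule passed it in the opposite direction under another.

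**Figure D2:**
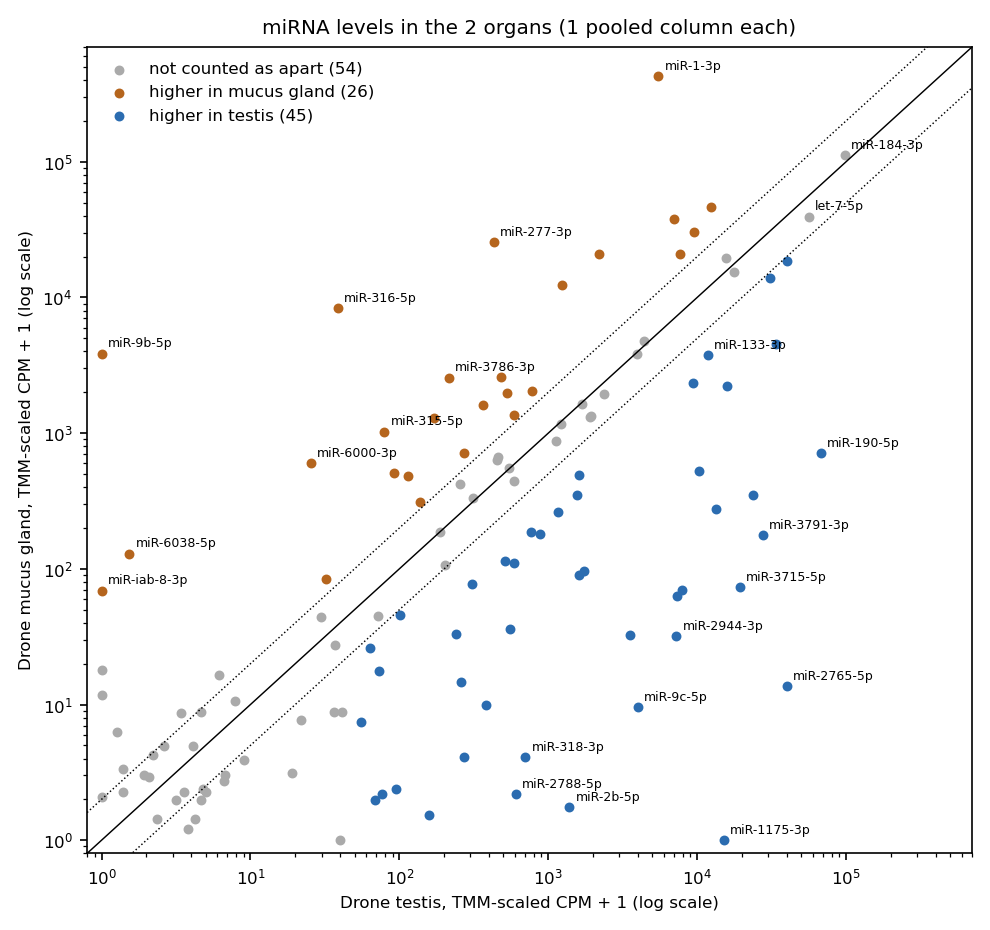
TMM-scaled CPM plus 1 of the 125 members in drone testis (x axis, log scale) and drone mucus gland (y axis, log scale), 1 merged column each. The solid line marks equal levels and the dotted lines 2-fold differences. Brown points (26) and blue points (45) passed the 2-fold rule with 50 CPM or more; miR-9b-5p and miR-iab-8-3p lie on the left edge with 0 testis counts, and miR-1175-3p on the lower edge with 0 mucus gland counts.

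The muscle miRNAs parted. miR-1-3p had 3994331 counts in mucus gland and 40652 in testis, or 427726 and 5471 CPM, a log2 ratio of 6.29 (counting interval 6.27 to 6.30). The mucus gland was the highest and the testis the lowest of the 11 organ columns, the other 9 lying between 29311 and 286390 CPM. miR-133-3p, which accompanies miR-1 in muscle of many animals, had 34944 counts in mucus gland and 87480 in testis, or 3742 and 11772 CPM, a log2 ratio of -1.65. It was highest of all 11 columns in testis. For each count of miR-133-3p there were 114 of miR-1-3p in mucus gland and 0.465 in testis. The other 9 columns held between 4.06 (drone brain) and 290 (drone ventriculus), so the testis lay outside their range and the mucus gland within it. This ratio is taken within a column and needs no scaling between organs.

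miR-10a-5p, which sits in the Hox complex of insects, had 195965 counts in mucus gland and 16272 in testis, or 20985 and 2190 CPM (log2 ratio 3.26), again the highest and the lowest of the 11 columns. Worker ovary came close to the gland, at 20642 CPM. miR-iab-8-3p comes from the bithorax part of the complex, a locus that in flies acts in the male accessory gland. It had 637 counts in mucus gland (68.2 CPM) and 0 in testis, at least 169-fold higher against the 3-count limit. In the other 9 columns it ran from 0 to 3.66 CPM. miR-iab-4-5p had 22 and 3 counts. Its sequence is complementary to miR-iab-8-3p over 20 bases, as shown above, and whether the counting used the strand is not given in the sources used here. The remaining Hox-linked member, miR-993-3p, lay the other way, with 834 counts in mucus gland and 11873 in testis (89.3 and 1598 CPM, log2 ratio -4.15). Of the 4 members of this list 2 were higher and 1 lower, with a median of 2.26 beside -0.64 over all members.

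miR-277-3p, which controls branched-chain amino acid breakdown in flies, had 237849 counts in mucus gland and 3202 in testis, or 25470 and 431 CPM (log2 ratio 5.88, counting interval 5.83 to 5.94). Mucus gland was the highest and testis the lowest of all organ columns, with queen ovary close to testis at 491 CPM. miR-317-3p, of the same genomic cluster in insects, stood at 1967 and 529 CPM (log2 ratio 1.89). miR-34-5p, the third cluster member and an ageing factor in the fly brain, was near parity at 15267 and 17540 CPM, and the sign of that difference turned under 3 of the 4 other scalings. miR-14-3p, a regulator of fat metabolism and cell death in flies, had 46325 CPM in the gland against 12323 in testis (log2 ratio 1.91). miR-375-3p had 2032 and 777 CPM and lost its 2-fold difference under plain CPM. miR-8-3p, which acts on growth through insulin signalling in the fly fat body, was within 2-fold at 19611 and 15647 CPM. miR-33-5p, a regulator of lipid metabolism, lay on the testis side with 75.8 and 308 CPM, as did miR-305-5p, which acts in fly intestinal stem cells, with 347 and 1562 CPM. The epithelium and metabolism list thus had 3 of 6 members higher and 2 lower (2 and 2 under plain CPM), with a median of 0.86. In the miR-34, miR-277 and miR-317 cluster 2 of 3 were higher and 0 lower, with a median of 1.89.

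miR-316-5p, for which no role is given here, had 78256 counts in mucus gland and 279 in testis, or 8380 and 37.5 CPM (log2 ratio 7.76, counting interval 7.63 to 7.98). The gland was the highest and the testis the lowest of the 11 columns. The cluster of miR-12, miR-283 and miR-3477 had 2 of 3 members higher and 0 lower: miR-3477-5p at 37669 and 6939 CPM, and miR-12-5p at 30200 and 9569 CPM. The third, miR-283-5p, was at 4760 and 4406 CPM, and its sign turned under plain CPM. The median of this cluster was 1.66. miR-315-5p had 1023 CPM in mucus gland and 78.1 in testis, and miR-6038-5p had 1201 and 4 counts, or 129 and 0.538 CPM. miR-6038-5p was also high in worker brain, at 120 CPM.

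The miR-9 seed CUUUGGU was present in both organs but mainly on different sequences. Summed over the 3 members, it stood at 6455 CPM in mucus gland and 4472 in testis (log2 ratio of the sums 0.53, and 0.08 to 1.14 under the other scalings). In mucus gland miR-9b-5p gave 59.6% of that sum and miR-9a-5p, which in flies limits the number of sense organs, 40.3%. In testis miR-9c-5p gave 89.3% and miR-9a-5p 10.7%. miR-9b-5p had 35931 counts in mucus gland and 0 in testis, at least 9530-fold higher, and 0 to 42.2 CPM in the other 9 columns. miR-9c-5p had 80 counts in mucus gland and 29689 in testis (8.57 and 3995 CPM, log2 ratio -8.71). The gland was the lowest of all columns for miR-9c-5p, and worker ovary was the one column above testis, at 20050 CPM. With miR-79-5p (419 and 255 CPM) and miR-306-5p (3832 and 3925 CPM), both in the miR-9 cluster of flies, the list of 5 had 2 higher and 1 lower and a median of 0.71. Under 3 other scalings 3 were higher.

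The seed AUCACAG, through which miR-2, miR-11 and miR-13 repress the fly cell death genes reaper, grim and sickle, also changed carrier. Counting each distinct sequence once, it summed to 15551 CPM in mucus gland and 10658 in testis (log2 ratio 0.54, and 0.09 to 1.15 under the other scalings). miR-11-3p gave 79.7% of the gland's sum, whereas in testis miR-2944-3p gave 67.8% and miR-2a-5p 18.2%. Here miR-2a-5p stood for all entries of its sequence, and the counts of the others were left out. With all 7 entries summed (18237 and 13157 CPM), miR-11-3p gave 68.0% in the gland and miR-2944-3p 54.9% in testis. miR-11-3p had 115802 counts in mucus gland and 9116 in testis, or 12401 and 1227 CPM (log2 ratio 3.34, counting interval 3.31 to 3.37). Both drone reproductive organs lay above the other 9 columns for miR-11-3p, which ran from 151 to 833 CPM. miR-13b-3p had 1290 and 170 CPM, and miR-13a-3p 504 and 91.6 CPM. miR-2944-3p had 289 and 53691 counts (30.9 and 7225 CPM, log2 ratio -7.82). It was lowest of all 11 columns in the gland, with drone brain and drone ventriculus close at 36.9 and 37.8 CPM. Worker ovary held 76512 CPM against 249 in queen ovary.

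In the miR-2 family, 3 entries carry 1 sequence: miR-2a-5p at 1325 and 1944 CPM, miR-2a-2-5p at 1321 and 1913, and miR-2a-3-3p at 1366 and 586. The split among them is therefore uncertain. miR-2b-5p had 7 counts in mucus gland and 10251 in testis (0.750 and 1380 CPM). It is complementary to the miR-2a sequence over 21 bases, and here too the use of the strand in counting is not given. It was at 0 in 7 of the other 9 columns and reached 6316 CPM in worker brain and 870 in queen ovary. bantam-3p, which promotes growth and blocks cell death in flies, had 20804 CPM in mucus gland and 7645 in testis, a 2-fold difference that plain CPM took away. Of the growth and apoptosis list 6 of 11 members were higher and 3 lower (4 and 4 under plain CPM), and the median was 1.22. In the miR-71 and miR-2 cluster 3 of 7 were higher and 1 lower (2 and 2 under plain CPM), with a median of -0.03. Its namesake miR-71-5p had 1646 and 1683 CPM.

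The seed GACUAGA was mainly found in testis. miR-279, which in flies shapes carbon dioxide sensing neurons and dampens JAK-STAT signalling, and miR-996 summed to 1753 CPM in mucus gland and 19575 in testis (log2 ratio -3.48). In testis miR-279d-3p gave 52.9% and miR-279b-3p 40.2% of the sum. In the gland miR-279a-3p led with 38.1%, followed by miR-279d-3p with 29.7%. miR-279b-3p had 644 and 58468 counts (69.0 and 7868 CPM), miR-279d-3p 521 and 10347 CPM, and miR-279c-3p 185 and 768 CPM. miR-279a-3p was within 2-fold at 668 and 456 CPM, and miR-996-3p was on the gland side at 310 and 136 CPM, a 2-fold difference lost under plain CPM. miR-279a-3p and miR-279d-3p share their first 19 bases and differ only at the 3′ end. Their split is therefore uncertain, and with it the difference in leading entry between the organs.

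In the pair of seed CAGGUAC, miR-275-3p, needed for blood digestion in mosquitoes, had 42059 and 252942 counts (4504 and 34039 CPM, log2 ratio -2.92), highest of 11 columns in testis. miR-306-5p was at parity, 3832 and 3925 CPM, and both have been tied to the fly testis, where they act on the differentiation gene bam. The seed ACCCUGU rested in the gland on miR-10a-5p, which gave 91.5% of it there. In testis miR-10a-5p gave 48.2% and miR-3785-3p 51.8%. miR-3785-3p stood at 1957 and 2351 CPM. The miR-92 family was lower in the gland, with sums of 371 and 1757 CPM. Of its 3 members 0 were higher and 2 lower, namely miR-92b-3p at 259 and 1154 CPM and miR-92c-3p at 110 and 585 CPM, with a median of -2.41. For the seed AGCACCA, miR-29b-5p had 31.4 and 3524 CPM, and miR-995-3p had 83.7 and 31.2, the latter being lost under plain CPM. Over the 7 seeds carried by 2 or more distinct sequences, 4 held members that were at least 2-fold apart in opposite directions, and 2 under plain CPM, where miR-995-3p and miR-996-3p no longer passed.

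**Figure D3:**
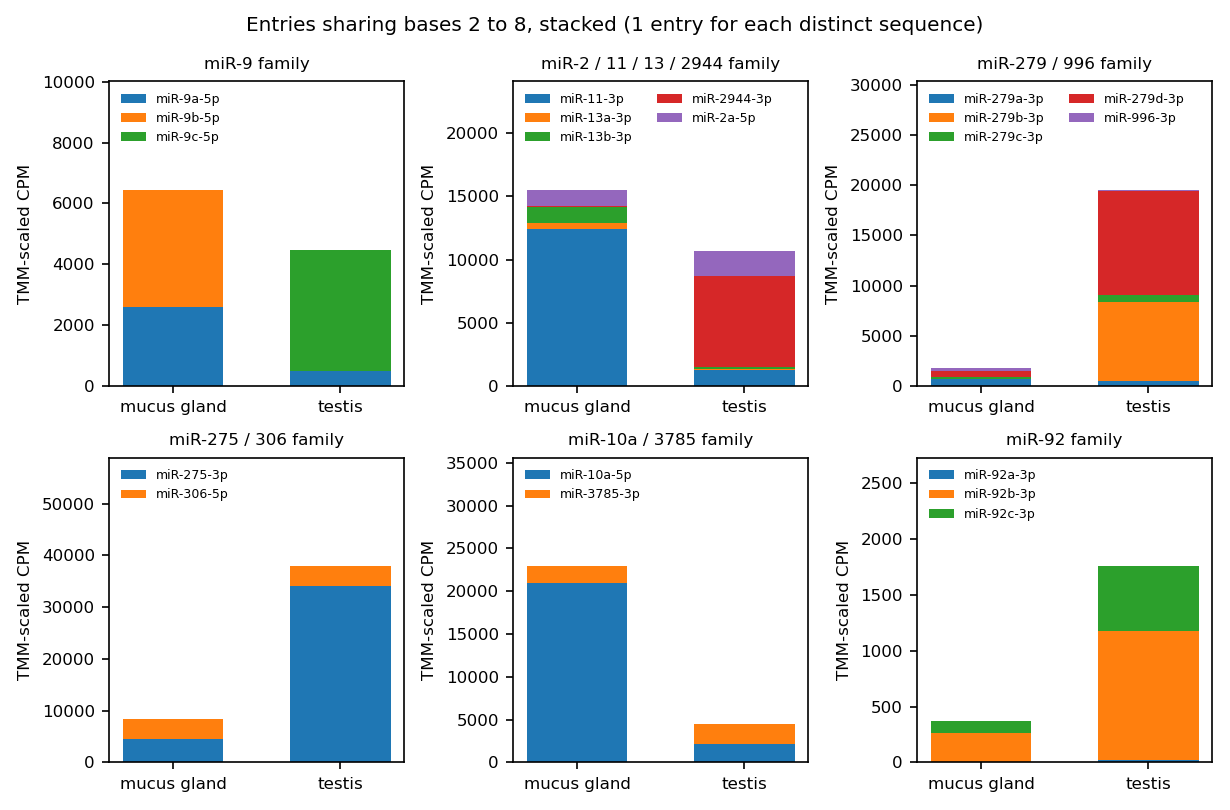
TMM-scaled CPM of entries that share bases 2 to 8, stacked by entry for drone mucus gland and drone testis, 1 bar per merged column. The miR-9 seed sums to 6455 and 4472 CPM but is carried by miR-9a-5p and miR-9b-5p in the gland and by miR-9c-5p in testis, and miR-11-3p gives way to miR-2944-3p in the second panel.

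Several abundant testis entries were scarce in the gland. miR-190-5p, conserved across animals and studied mostly in neurons, had 6675 counts in mucus gland and 504281 in testis, or 715 and 67862 CPM (log2 ratio -6.57, counting interval -6.60 to -6.53). The gland lay inside the range of the other 9 columns, 216 to 1510 CPM, and the testis was the one column above it. miR-2765-5p had 118 and 295780 counts (12.6 and 39804 CPM, log2 ratio -11.51). Besides testis it was high in worker ventriculus, the bee midgut, at 26396 CPM, against 4.36 CPM in drone ventriculus. miR-1175-3p had 0 counts in mucus gland and 111571 in testis (15014 CPM), at least 46737-fold higher in testis. Queen ovary held 383119 CPM of it, drone ventriculus 209 CPM, and 5 of the other 9 columns were at 0. Its cluster partner in mosquitoes, miR-750-3p, was at 333 and 310 CPM.

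Of the 17 members numbered between 3715 and 3799, a series of bee miRNAs, 2 were higher and 9 lower in mucus gland, beside 20.8% and 36.0% of all members. Their median was -2.84, and together they took 0.736% of mucus gland counts and 13.6% of testis counts. miR-3791-3p had 1644 and 205667 counts (176 and 27677 CPM, log2 ratio -7.29), with 52856 CPM in worker ovary. miR-3715-5p had 672 and 143722 counts (72.0 and 19341 CPM, log2 ratio -8.05), and its other 9 columns ran from 102 to 2719 CPM. miR-3718a-3p had 347 and 23822 CPM and miR-3718c-5p 275 and 13452 CPM. Both were highest of all columns in testis, and miR-3715-5p and miR-3718a-3p were lowest in the gland. For miR-3718a-3p worker ventriculus was close to the gland, at 360 CPM. On the gland side of the series, miR-3786-3p and miR-3786-5p carry 1 sequence and had 2562 and 215 CPM and 718 and 271 CPM. The 17 members numbered 6000 to 6067 had 2 higher and 3 lower, and the 7 numbered 9864 to 9896 had 0 in either direction, none reaching 50 CPM.

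The remaining entries that passed the 2-fold rule were of lower level, and most lay on the testis side. miR-2788-5p had 11 counts in mucus gland and 4478 in testis (1.18 and 603 CPM), and miR-193-3p had 5 and 1173 (0.535 and 158 CPM). Worker ventriculus held 1567 CPM of miR-2788-5p and worker brain 320 CPM of miR-193-3p, so neither was highest in testis. miR-282-5p had 13.7 and 257 CPM and reached 4787 CPM in queen ovary. miR-3759-3p (487 and 1611 CPM) and miR-3049-5p (113 and 511 CPM) were lowest of all columns in the gland and low in testis too, other columns reaching 39631 and 13874 CPM. miR-927a-5p, on the gland side, had 486 and 114 CPM and was lowest of all columns in testis, while its relative by name miR-927b-5p was at 548 and 544 CPM. miR-6001-5p, miR-6044-5p and miR-965-5p lost their 2-fold difference under at least 1 other scaling.

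Among the 33 members under 50 CPM in both organs, a few were listed in 1 organ alone. miR-3723 had 0 counts in mucus gland and 290 in testis, at least 121-fold higher in testis. miR-928 had 101 and 0 counts. miR-67-3p had 157 and 0 counts, but miR-307-3p carries the same sequence and had 73 and 265, so the sequence itself was present in both organs.

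Among miRNAs tied to gonads, the pattern was not shared. miR-184-3p was near parity at 112236 and 98285 CPM, its sign turning under plain CPM. miR-318-3p, an ovary miRNA in flies, had 29 and 5200 counts (3.11 and 700 CPM), and queen ovary held 11445 CPM. miR-989-3p, which acts in border cells of the fly ovary, stood at 635 and 449 CPM, far below worker ovary (20865 CPM) and queen ovary (8695 CPM). miR-7-5p was at 1166 and 1211 CPM. Of the 7 germline and gonad members 0 were higher and 3 lower (1 and 3 under DESeq2 size factors and under totals without the top entries), with a median of -0.05. Of the 45 entries lower in mucus gland, 22 had an ovary as the highest of the other 9 columns, against 11 of the 26 higher in mucus gland and 55 of all 125 members. These counts describe the columns and were not tested.

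The neural list had 2 of 18 members higher and 10 lower, beside 20.8% and 36.0% of all members, with a median of -1.41, and 8 to 11 lower under the other scalings. The members on the gland side were miR-9a-5p and miR-9b-5p, and those on the testis side included 3 miR-279 entries, miR-9c-5p and miR-190-5p. Of the neuron markers, miR-124-5p had 2 counts in mucus gland and 21 in testis (0.214 and 2.83 CPM), against 110 and 241 CPM in the brains. miR-137-3p had 9 and 501 counts and miR-219-3p 29 and 1999, so all 3 had more counts in testis. For miR-137-3p and miR-219-3p the testis (67.4 and 269 CPM) lay above both brains (28.7 and 13.5 CPM, and 97.9 and 115 CPM), so in these columns they did not set brain apart. Other list members with high brain levels lay either way. miR-2796-3p stood at 185 and 186 CPM against 47577 and 39507 in the brains, and miR-929-3p at 15.4 and 5.11 CPM against 444 and 313. By contrast, miR-210-3p (2871 and 5154 CPM in the brains) and miR-276-3p (81730 and 103350 CPM) were higher in testis than in mucus gland. The part of nervous tissue in either organ was not tested. miR-276-3p, a memory miRNA in flies, had 18455 and 39784 CPM and miR-87a-3p 13834 and 30976, and both lost their 2-fold difference under 3 other scalings. miR-210-3p, of photoreceptors and the clock in flies, was at 16.7 and 71.6 CPM.

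In the gut and excretory list 1 of 6 members was higher and 4 lower, with a median of -2.50. miR-281-5p, a miRNA of insect gut and Malpighian tubules, was the one higher, at 1623 and 363 CPM, below the 8786 and 6698 CPM of the 2 ventriculi. miR-31a-5p had 2213 and 15831 CPM. Of the 10 entries tied to ecdysone and juvenile hormone 2 were higher and 3 lower, near the 20.8% and 36.0% of all members, with a median of -0.39. The lower ones, beside miR-275-3p, were miR-252a-5p (181 and 874 CPM) and miR-252b-5p (94.6 and 1745 CPM). The let-7 complex, which times metamorphosis, had 0 of 3 members in either direction: let-7-5p at 39380 and 56028 CPM, miR-100-5p at 873 and 1132, and miR-125-5p at 442 and 586. Their median of -0.41 turned above 0 under DESeq2 size factors and under totals without the top entries. The counts and medians of the lists are read beside the 20.8% higher, 36.0% lower and the median of -0.64 of all members, and the lists overlap. No miRNA was taken as a defining marker of testis or mucus gland, so the organ labels could be set only against the muscle, neuron, gut and ovary markers above.

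**Figure D4:**
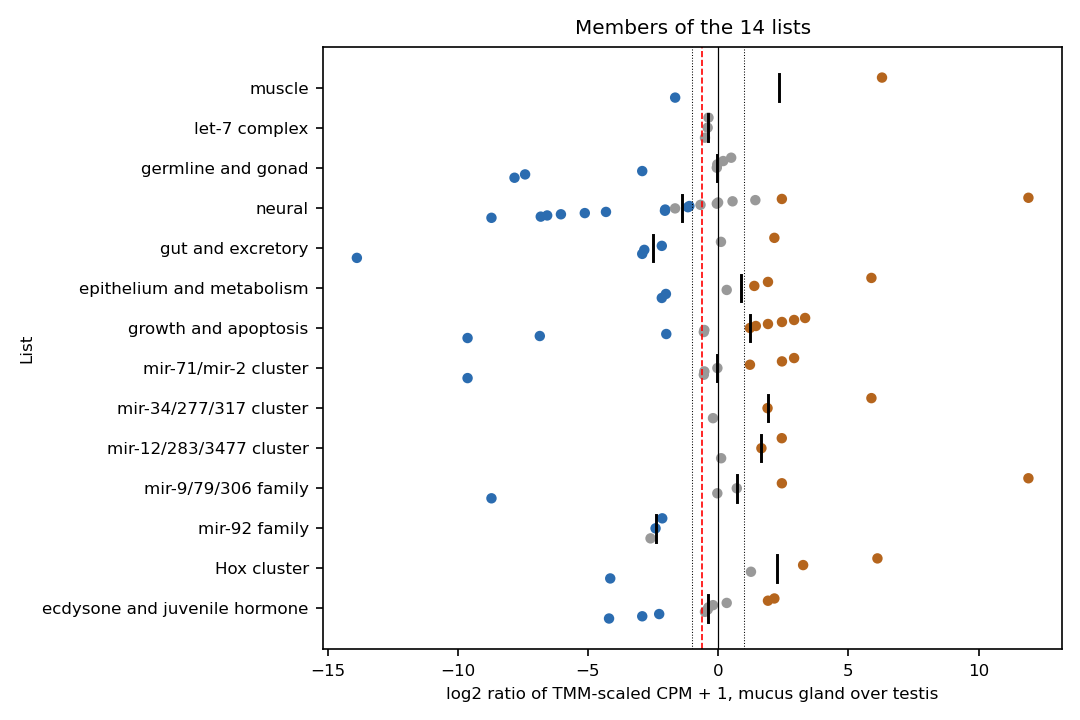
log2 ratio of TMM-scaled CPM plus 1, mucus gland over testis, for each member of the 14 lists (1 point per entry, entries of several lists drawn in each). Brown and blue points passed the 2-fold rule with 50 CPM or more, grey points did not, black bars are list medians and the dashed red line is the median of all 125 members, -0.64. The point at the far right is miR-9b-5p (0 testis counts) and that at the far left miR-1175-3p (0 mucus gland counts), whose ratios depend on the added 1 CPM.

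For miR-6000 and miR-263a, the pairs of named arms with 20 or more counts in each column over both arms and with a different sequence for each arm (miR-3786 has 1 sequence for both), the balance of the arm entries differed between the organs. For miR-6000 the 5p entry gave 13 of 5648 counts in mucus gland, 0.230% (exact binomial interval 0.123 to 0.393%), and 702 of 884 in testis, 79.4% (76.6 to 82.0%). A second entry, miR-6000b-3p, has the sequence of miR-6000-3p. With its 247 and 266 counts added, the 5p share was 0.221% (0.117 to 0.377%) in mucus gland and 61.0% (58.2 to 63.9%) in testis. The 5p and 3p sequences of miR-6000 are complementary over 21 bases. Whether the counting used the strand is not given, so the split between these entries is uncertain. For miR-263a, which protects sensory bristle cells from death in flies, the 5p share was 97.4% (97.2 to 97.6%) in mucus gland and 56.2% (55.9 to 56.5%) in testis. The entries named miR-263a-5p (2358 and 9400 CPM) and miR-263a-3p (62.4 and 7319 CPM) share a run of 19 bases and are complementary over no more than 6, so by sequence they are not the 2 arms of 1 hairpin. These intervals do not overlap between organs, but they leave out the variation between animals.

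The overlap of the shares of gland and testis (the sum over entries of the smaller share) was 35.7%, and 41.2% when miR-1-3p and miR-184-3p were left out. The mucus gland overlapped most with drone rectum (63.1%), worker venom gland (60.9%) and worker rectum (60.3%). Without miR-1-3p and miR-184-3p the venom gland (59.5%) and the drone ventriculus (58.5%) came first. The testis overlapped most with drone rectum (44.0%), worker ovary (43.6%) and worker rectum (43.5%). Without miR-1-3p and miR-184-3p this order turned, and the mucus gland, at its 41.2%, overlapped most with the testis, followed by drone rectum (40.5%) and drone brain (40.1%). Of the 26 entries higher in mucus gland, 10 were at their highest of the 11 columns there, and 8 were at their lowest in testis. Of the 45 lower ones, 14 were at their highest in testis and 11 at their lowest in mucus gland. The higher entries also differed in base content: 22 of 26 (84.6%) began with U, against 27 of 45 of the lower and 74 of all 125 members (59.2%), and their median GC content was 40.9% against 47.6% in the lower and in all members. These shares were not tested.

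**Figure D5:**
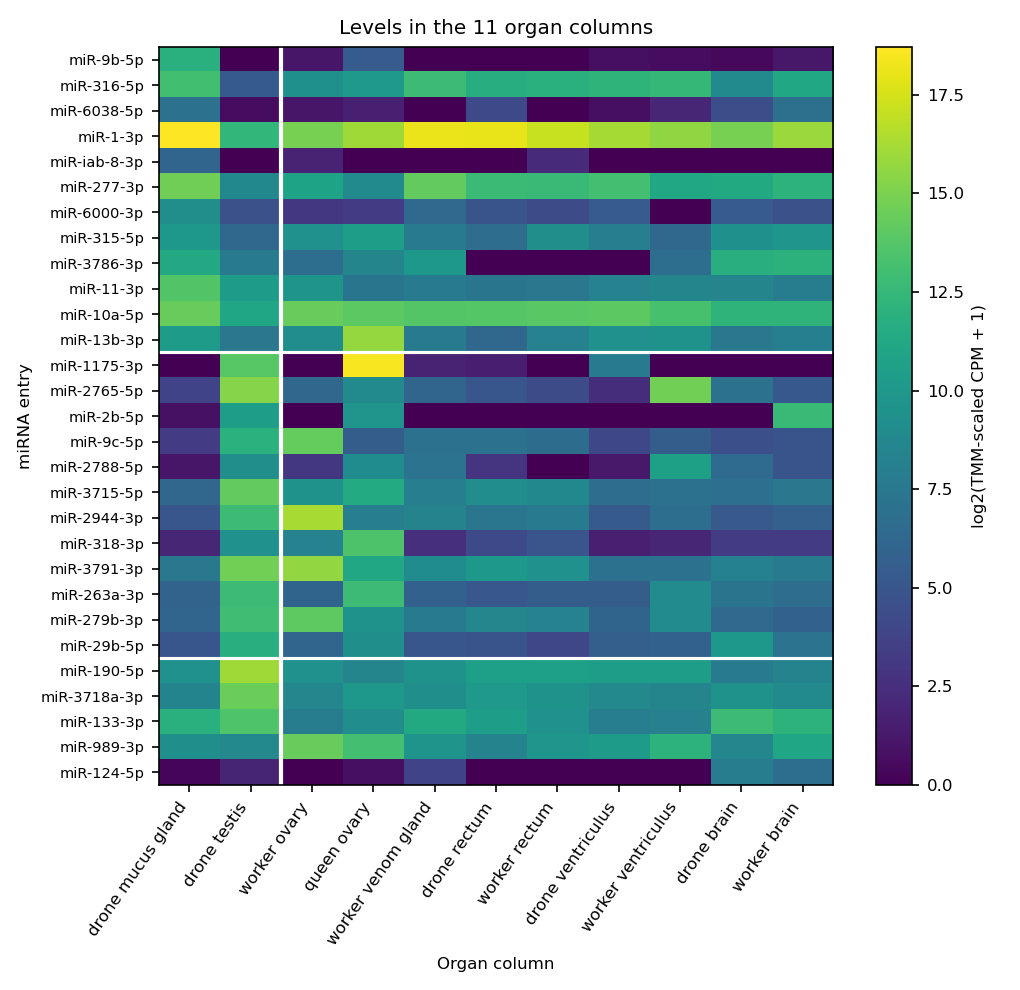
log2 of TMM-scaled CPM plus 1 in the 11 organ columns for the 12 entries with the largest ratio in each direction and 5 further entries, in 3 blocks from top to bottom (higher in mucus gland, lower in mucus gland, others). miR-9b-5p and miR-iab-8-3p are brighter in mucus gland than in any other column, though miR-iab-8-3p is low on the scale there. miR-190-5p and miR-3718a-3p are brightest in testis, and miR-9c-5p, miR-2944-3p and miR-3791-3p are bright in testis and worker ovary.

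A test with an error term could be had only by borrowing spread from the other organs. An edgeR quasi-likelihood fit of the 11 columns with 1 mean for each of 7 organ classes takes its spread from organs that 2 castes share, with 4 residual degrees of freedom, and assumes that the lone gland and testis columns vary likewise. It called 0 of 135 entries (0%) at an adjusted p of 0.05 or less, with 23 at an unadjusted p of 0.05 or less and the lowest Benjamini-Hochberg adjusted p at 0.0677 (miR-190-5p). With DESeq2 the same design called 31 of 151 (20.5%), 12 higher and 19 lower, of which 29 were among the 71 entries in the same direction. The other calls were miR-67-3p, with 157 and 0 counts, and miR-9896, with 1 and 0 counts. Without the worker and queen ovary columns edgeR called 17 of 127 (13.4%), 7 higher (5.51%) and 10 lower (7.87%), all among the 71 entries and in the same direction.

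In that smaller edgeR fit the entries higher in mucus gland were miR-1-3p (log2 fold change 6.30, SE 1.01, adjusted p = 0.0166), miR-316-5p, miR-277-3p, miR-11-3p, miR-10a-5p, miR-3477-5p and miR-9b-5p. Those lower were led by miR-190-5p (-6.56, SE 0.73, adjusted p = 0.0104), miR-3791-3p (-7.29, SE 0.77, adjusted p = 0.0104) and miR-3715-5p (-8.06, SE 0.93, adjusted p = 0.0104). The others were miR-9c-5p, miR-2944-3p, miR-318-3p, miR-219-3p, miR-3718a-3p, miR-3718c-5p and miR-993-3p. Adjusted p over the 17 ran from 0.0104 to 0.0461. miR-1175-3p, miR-2765-5p and miR-iab-8-3p, among the most extreme by ratio, were not called. The smaller fit had 3 residual degrees of freedom. It took its spread from brain, ventriculus and rectum, and so from no gonad, and whether that spread holds for testis was not tested. None of the 17 was called with all 11 columns.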

How the data were processed

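The deposited organ table holds miRNA counts per entry with mature sequences, merged by the authors to 1 column per organ from 2 libraries; whether a column is their sum or mean is not given in the sources used here, and shares and ratios within a column do not depend on it. Of the upstream tools, bcl2fastq and kallisto are known from the submitters' processing notes, with no version or setting. The deposited read statistics were not used, since their row names could not be matched to single samples. Per the labels' protocols, RNA was taken with Trizol and 1 small RNA kit was used. Levels were computed as TMM-scaled CPM (edgeR 4.0.16, R 4.3.3). An entry was counted as apart at 2-fold or more with 50 CPM or more on the higher side, after adding 1 CPM. Intervals are exact binomial (scipy 1.17.1). Tests were edgeR quasi-likelihood with Benjamini-Hochberg adjustment, and DESeq2 1.42.0 as an alternative. The edgeR fit was tested on simulated data, and the DESeq2 test was not. An SE given beside an edgeR log2 fold change is the size of that change divided by the square root of its quasi-likelihood F statistic. The design had been planned for single libraries as well, but the merged columns allow no replicate error. The text names the 10 leading entries of each organ, the 12 most extreme in each direction, the members of 14 lists, entries of their seeds, arm pairs and entries at the limit of 10 counts; other entries were chosen after their values were seen. The members and lists were chosen with earlier results of these data known. Alternatives were 5 scalings, the pseudocount, filters, the fold threshold and the fits.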

Additional observations from a re-analysis of the deposited data

How the results depend on the processing

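At a 4-fold threshold 17 entries in place of 26 were higher in mucus gland, and 11 list members in place of 17. Under the other scalings, pseudocount and filters, the counts over all members and over all lists stayed within 1.5 times of the reported ones in each direction. Single lists moved further: the germline and gonad list had 1 higher in place of 0 under DESeq2 size factors and under totals without the top entries, the miR-71 and miR-2 cluster 2 lower in place of 1 under plain CPM, and the Hox list 1 higher in place of 2 at 200 CPM or more. At 4-fold the muscle list had 0 lower in place of 1. The number higher fell by more than 1.5 times in 5 lists: epithelium and metabolism 1, growth and apoptosis 3, the miR-34 cluster 1, the miR-12 cluster 1 and the hormone list 1. The edgeR calls depended on the columns and the tool: 0 with all 11 columns, with a drone term or with DESeq2 size factors, 1 with no filter on low counts, 17 without the ovary columns and 31 with the DESeq2 Wald test. At an unadjusted p of 0.05 or less the drone term gave 15 entries, DESeq2 size factors 22 and no filter 28. The cause was not tested. Leaving out single libraries was not run, since the deposited table does not separate them, and leaving out 1 column would remove an organ. No paired analysis was possible because the deposited table holds 1 merged column per organ. Depth limits the entries under 50 CPM on both sides, 33 of 125, for which a 2-fold difference was not counted.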
